A study of Triticum aestivum with 12 samples.

Results

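The 100 wheat genes described here are those whose level followed the leaf gene Traes_4BS_6A4AC84DB, called the seed gene below, most closely from library to library. They were taken from the 18263 of 99386 gene identifiers that averaged at least 5 CPM, the counts of a gene for every 1000000 counts of its library. Members are the 100 genes with the highest Pearson correlation (r) of log2(CPM + 1) with the seed gene over 12 libraries, the seed gene included. The levels in all 12 libraries therefore chose the members, and every level and correlation over those libraries is given as a description.

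RNA with a polyA tail was sequenced from leaves of wild-type bread wheat, variety Chinese Spring L42, in 4 groups of 3 libraries. The study asked what LRM, a commercial biostimulant made from microalgae, does to leaf transcripts with and without drought. Plants of irrigated_water and irrigated_LRM were given 180 ml of water 2 times a week, and those of drought_water and drought_LRM were given 30 ml, in pots that hold 180 ml. The leaves of both LRM groups were sprayed with LRM diluted to 0.5%, and those of both water groups with water, a day after planting and then at 14-day intervals. Plant age at harvest is not stated in the labels. The labels number the 3 libraries of a group without saying that they are separate plants, so a p-value measures the spread between these samples, which may be technical. Total counts ran from 17541561 in drought_LRM 2 to 47305447 in drought_water 3, and drought_LRM 2 was both the shallowest library and the one in which most members were highest.

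Bread wheat carries the related subgenomes A, B and D, and most of its genes exist as similar copies on matching chromosomes, so counts of a gene can include reads of a copy. Leaves short of water close their stomata and change the transcript levels of many genes, among them genes that respond to the hormone abscisic acid. A co-variation list collects genes that rise and fall in the same samples, and where few samples are compared, 1 sample far from the others can set the order of such a list. The identifiers name a chromosome arm (4BS is the short arm of chromosome 4B) and carry no gene name. None matched the wheat reference table used here, so no function is given for any member and each is uncertain as to reads shared with a copy.

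The seed gene differed many-fold between libraries of the same group in 3 of the 4 groups. In irrigated_water its level was 1516, 195 and 225 CPM in libraries 1 to 3. In drought_water it was 280, 269 and 231 CPM. In irrigated_LRM it was 1240, 297 and 253 CPM, and in drought_LRM it was 904, 10131 and 1345 CPM. The 5 high libraries were thus irrigated_water 1, irrigated_LRM 1 and all 3 of drought_LRM, and the other 7 lay between 195 and 297 CPM. Drought_LRM lay wholly above drought_water, whereas it overlapped irrigated_LRM and irrigated_water. The highest library was 35.0 times the median library in CPM + 1. Between replicates, the highest CPM + 1 was 7.75 times the lowest in irrigated_water, 4.88 times in irrigated_LRM, 11.2 times in drought_LRM and 1.21 times in drought_water. In these bulk samples a larger share of cells that make a transcript and more transcript per cell cannot be told apart.

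The closest followers of the seed gene kept nearly its profile. Traes_7DS_004250070 (r 0.999) stood at 498, 70.8 and 80.8 CPM in irrigated_water, at 102, 98.5 and 88.6 CPM in drought_water, at 392, 100 and 90.1 CPM in irrigated_LRM, and at 342, 3163 and 493 CPM in drought_LRM. Its high libraries were the 5 in which the seed gene was high, with drought_LRM 2 far above the others. Traes_3DL_B80EC2366 (r 0.998) stood at 1663, 160 and 196 CPM in irrigated_water, at 226, 220 and 212 CPM in drought_water, at 1092, 255 and 215 CPM in irrigated_LRM, and at 754, 8623 and 1306 CPM in drought_LRM. As in the seed gene, drought_LRM 2 was followed by irrigated_water 1 and then drought_LRM 3. Traes_1DL_71433F43D (r 0.997) stood at 649, 85.1 and 97.3 CPM in irrigated_water, at 121, 122 and 101 CPM in drought_water, at 416, 128 and 109 CPM in irrigated_LRM, and at 296, 3977 and 540 CPM in drought_LRM. Among its 5 high libraries drought_LRM 1 was the lowest, as in the seed gene. Traes_7DS_037CD9FCA (r 0.995) was high in the same 5 libraries, at 9.22, 1.19 and 1.41 CPM in irrigated_water, 1.54, 1.57 and 1.67 CPM in drought_water, 8.65, 2.33 and 1.66 CPM in irrigated_LRM, and 5.40, 62.5 and 10.7 CPM in drought_LRM.

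Counts of these genes stayed near a fixed proportion of the seed gene's counts while the seed gene's CPM ranged over 52.0-fold. Traes_7DS_004250070 had 31.2% to 38.4% of the seed gene's counts in the 12 libraries. Traes_3DL_B80EC2366 had 80.9% to 110% and Traes_1DL_71433F43D had 32.8% to 45.5%. Among all 91 pairs of the 14 members of large amplitude defined next, the highest of the 12 count ratios was 1.23 to 13.5 times the lowest, with a median of 2.92.

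The members were of 2 kinds by amplitude, the ratio of the highest to the median library in CPM + 1. This division was made after the values were seen. For 14 members, the seed gene among them, the ratio was 14.2 to 82.7 with a median of 33.3, and for 85 it was 1.14 to 2.29 with a median of 1.37. Over all 18263 genes the median ratio was 1.27, and 91 genes reached a ratio of 10. The remaining member, Traes_1AL_C527C8688, named after its values were seen, had a ratio of 4.05, with 26.4 CPM in drought_LRM 2 and 4.35 to 7.05 CPM in the other 11 libraries. The correlation thus put together genes that moved many-fold and genes that moved by at most 2.29-fold above it. The value of r does not depend on the size of a change.

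**Figure D1:**
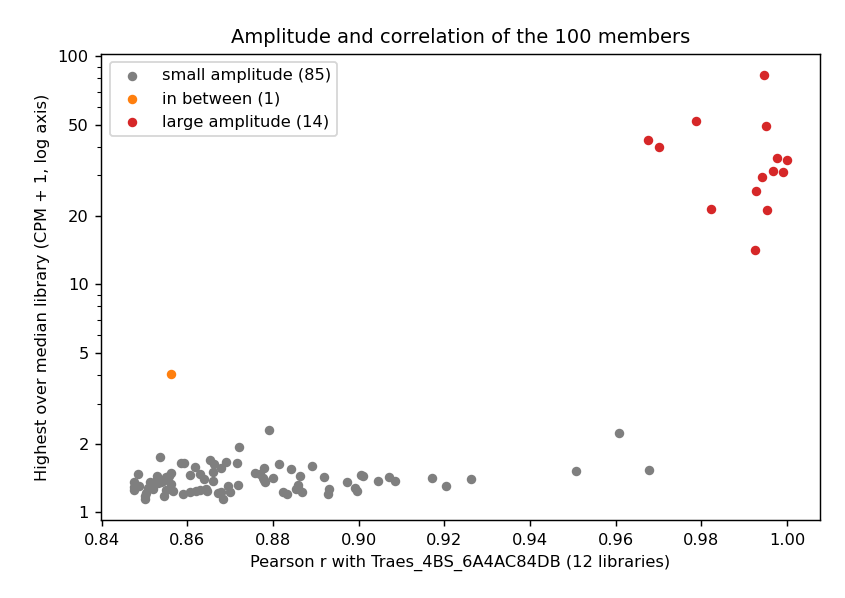
Each point is a member, with its Pearson r with the seed gene on the horizontal axis and its highest library over its median library in CPM + 1 on the vertical log axis. The 14 members of large amplitude lie at r of 0.9676 and above, and the 85 of small amplitude between 0.848 and 0.9679, so the ranges overlap slightly.

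The last members and the first genes outside were hardly separated. Ranks 98 to 100 were Traes_6DS_066F7755D, Traes_3AL_7BCADDE08 and Traes_3B_412389083, each with r 0.848. Ranks 101 to 103 were Traes_4DS_3BE557D5C with r 0.847, Traes_4DL_37F296D40 with r 0.846 and Traes_2DS_E9486F4DC with r 0.846. The gene at rank 200 still had r 0.820, so the boundary at 100 marks no gap. Among members, Traes_6DS_066F7755D ranged from 23.2 to 31.9 CPM over the 12 libraries, Traes_3AL_7BCADDE08 from 21.2 to 33.3 CPM and Traes_3B_412389083 from 7.85 to 12.8 CPM. Outside, Traes_4DS_3BE557D5C ranged from 3.95 to 8.15 CPM, Traes_4DL_37F296D40 from 4.21 to 9.69 CPM and Traes_2DS_E9486F4DC from 12.4 to 17.7 CPM. These 6 genes had their highest library in drought_LRM 2, except Traes_3AL_7BCADDE08, which was highest in drought_LRM 3.

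The largest ratio of highest to median library was that of Traes_7DS_D02FBE6BA, at 82.7. It stood at 359, 21.5 and 28.4 CPM in irrigated_water, 33.1, 34.3 and 23.6 CPM in drought_water, 164, 36.6 and 30.5 CPM in irrigated_LRM, and 194, 3011 and 316 CPM in drought_LRM. The next largest, 51.8, was that of Traes_7DL_98245621B, at 31.0, 5.43 and 5.43 CPM in irrigated_water, 5.44, 4.49 and 4.00 CPM in drought_water, 59.7, 5.003 and 4.24 CPM in irrigated_LRM, and 34.1, 332 and 57.0 CPM in drought_LRM. Both were high in the 5 libraries in which the seed gene was high, but irrigated_LRM 1 was above irrigated_water 1 in Traes_7DL_98245621B and below it in Traes_7DS_D02FBE6BA.

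**Figure D2:**
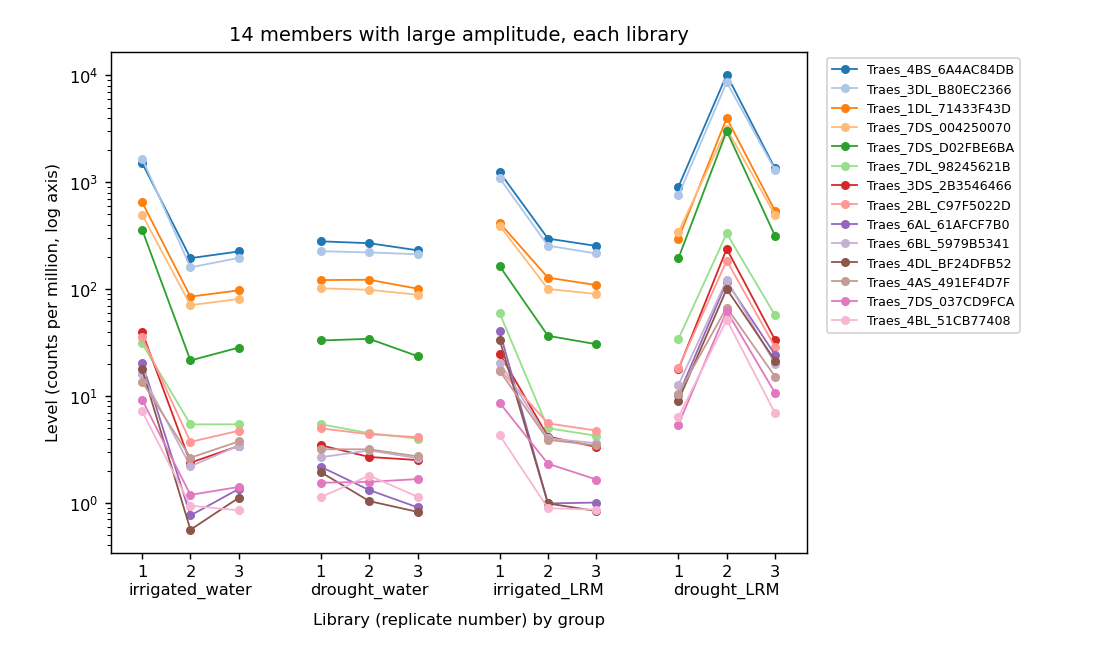
Points show the level in CPM, on a log axis, of the 14 members of large amplitude in each of the 12 libraries, and lines only join the points of a gene within a group. Every gene is highest in drought_LRM 2, and irrigated_water 1, irrigated_LRM 1, drought_LRM 1 and drought_LRM 3 lie above the other 7 libraries.

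A pair of members, named after their values were seen, departed together from the seed gene's proportions. Traes_6AL_61AFCF7B0 stood at 20.5, 0.762 and 1.35 CPM in irrigated_water, 2.17, 1.32 and 0.909 CPM in drought_water, 40.4, 0.988 and 1.01 CPM in irrigated_LRM, and 10.1, 117 and 24.4 CPM in drought_LRM. Its counts ran from 0.333% to 3.26% of those of the seed gene, highest in irrigated_LRM 1, which was its second highest library. Traes_4DL_BF24DFB52 followed it with r 0.9997 over the 12 libraries, and the ratio of their counts varied only 1.36-fold. Their arms, 6AL and 4DL, belong to different chromosome groups.

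All 14 members of large amplitude had the seed gene's 5 high libraries above its 7 low ones without overlap, and so did 47 of the 85 of small amplitude. Over all genes past the 5 CPM floor this held for 519, which is 2.84%. The rule used these levels, so nothing is read from the difference. The lowest of the 5 high libraries was above the highest of the 7 low ones by 3.04-fold in the seed gene and 3.36-fold in Traes_7DS_004250070. In drought_LRM 2 the level of the 14 was 5.05 above their own median library on the log2 scale (median over members), in irrigated_water 1 it was 2.38, in drought_LRM 3 it was 2.26, in irrigated_LRM 1 it was 2.13 and in drought_LRM 1 it was 1.65. In the other 7 libraries it was between -0.53 and 0.04. With CPM scaled by TMM, a normalization that removes shifts shared by most genes, the value in drought_LRM 2 was 4.95.

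The 85 members of small amplitude moved in the same direction by far less. Their median deviation was 0.45 in drought_LRM 2, 0.27 in drought_LRM 3, 0.17 in drought_LRM 1, 0.16 in irrigated_water 1 and 0.09 in irrigated_LRM 1. The median of all 18263 genes also stood above its own median library in drought_LRM 3, by 0.16, in irrigated_water 1, by 0.08, and in drought_LRM 2, by 0.06. With TMM scaling the deviation of the 85 became 0.36 in drought_LRM 2, 0.14 in irrigated_LRM 1, 0.13 in drought_LRM 1, 0.11 in drought_LRM 3 and 0.03 in irrigated_water 1. The order below drought_LRM 2 thus changed with the scaling. The median of all genes then lay between -0.011 and 0.011 in every library.

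**Figure D3:**
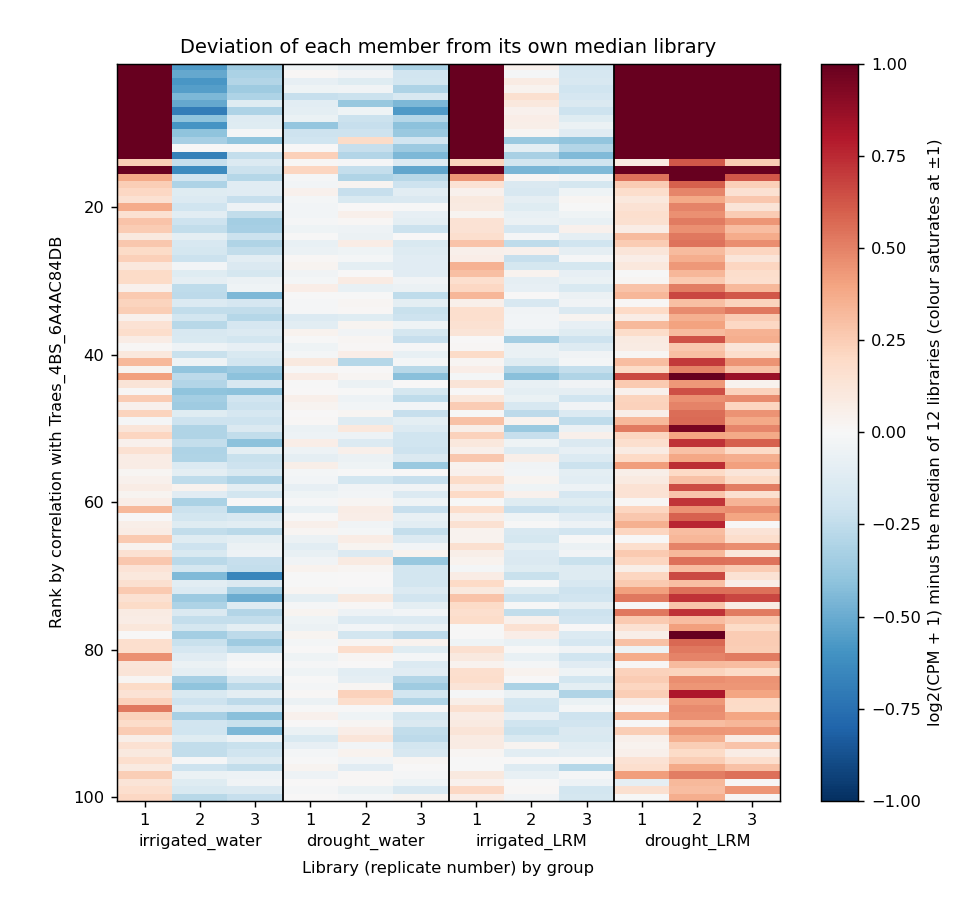
Rows are the 100 members in order of r with the seed gene, columns are the 12 libraries, and colour is log2(CPM + 1) minus the member's median library, saturating at 1 in either direction. The top rows are saturated in the 5 high libraries, and the paler rows below are highest mostly in drought_LRM 2.

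Drought_LRM 2 was the highest library of 88 members, drought_LRM 3 of 10, drought_LRM 1 of 1 and irrigated_water 1 of 1. For drought_LRM 3, the member of highest mean CPM among the 10 was Traes_3B_FFA902DFC, with 39.8, 48.4 and 50.1 CPM in drought_LRM 1 to 3 against 28.9 to 41.1 CPM in the other 9 libraries. Its drought_LRM 2 and 3 levels differed little, and irrigated_water 1 was above drought_LRM 1. Traes_2DL_9A5A4BC64 was highest in drought_LRM 1, at 17.7 CPM, with 17.5 and 17.1 CPM in drought_LRM 2 and 3 and 13.7 to 16.9 CPM elsewhere. Traes_5AS_9096D818E was highest in irrigated_water 1, at 8.15 CPM, followed by drought_LRM 2 at 7.81 CPM, with 4.53 to 6.27 CPM elsewhere. The smallest ratios of highest to median library were 1.14 in Traes_7AS_86807FA9E, which ranged from 27.8 to 38.0 CPM, and 1.15 in Traes_2DL_6BDDE0062, which ranged from 39.6 to 50.7 CPM.

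Peaks in a single library were found mostly in members. Across all 18263 genes, 13 had a level in their highest library at least 3 times that in the second highest in CPM + 1, and all 13 were members peaking in drought_LRM 2. At 2 times there were 19 such genes, of which 16 peaked in drought_LRM 2, 15 of them members, and 3 peaked in drought_LRM 3, 0 of them members. The rule favours genes with the seed gene's peak, so these counts describe the table and test nothing.

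The members took 3.17% of all counts in drought_LRM 2 (exact Clopper-Pearson 95% interval 3.16% to 3.18%, for counting error only, since the labels mention no molecular identifiers). They took 0.610% in irrigated_water 1, 0.559% in drought_LRM 3, 0.471% in irrigated_LRM 1, 0.385% in drought_LRM 1 and 0.150% to 0.187% in the other 7 libraries. The group means were 1.37% ± 1.56 in drought_LRM, 0.306% ± 0.263 in irrigated_water, 0.277% ± 0.169 in irrigated_LRM and 0.179% ± 0.0116 in drought_water (SD, n = 3 each). The spread in drought_LRM was thus larger than its own mean. In drought_LRM 2 the 14 members of large amplitude took 3.02%, against 0.150% for the 85 of small amplitude, and the seed gene alone took 1.01%. The 14 also took more than the 85 in the other high libraries, with 0.261% against 0.123% in drought_LRM 1. In the 7 low libraries the 85 took more, with drought_water means of 0.104% against 0.0745%.

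Per length, members reached the top of the whole table. FPKM, in effect CPM per kilobase of transcript, was 32034 for the seed gene in drought_LRM 2, and its median over libraries was 913. By this per-length level the seed gene ranked 1st of 18263 in drought_LRM 2, 14th in irrigated_water 1, 15th in drought_LRM 3, 24th in irrigated_LRM 1, 37th in drought_LRM 1 and between 138th and 193rd in the other 7 libraries. Traes_3DL_B80EC2366 and Traes_1DL_71433F43D ranked 2nd and 3rd in drought_LRM 2, Traes_7DS_D02FBE6BA 9th and Traes_7DS_004250070 18th, so 5 members of large amplitude stood among the first 100 there. There were 3 in irrigated_water 1, 2 each in irrigated_LRM 1 and drought_LRM 3, 1 in drought_LRM 1 and 0 in each of the 7 low libraries. Traes_7DS_037CD9FCA, the fifth member by r, ranked 269th in drought_LRM 2 and between 1357th and 8396th in the other libraries.

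Each gene was next read in a library that had no part in choosing it. The 100 genes were chosen again from 11 libraries, and the level of the seed gene and of the other 99 in the library left out was set against the median of the 11. Without drought_LRM 2, only 19 of the 100 members were chosen again, 12 of them of large amplitude. The other 2 of large amplitude, Traes_7DS_037CD9FCA and Traes_4BL_51CB77408, averaged 4.12 and 2.94 CPM over the 11 libraries, under the floor, while the r of every large member with the seed gene over the 11 was at least 0.961. In all, 6 members passed the floor only through drought_LRM 2. In drought_LRM 2 the seed gene stood 5.17 above the median of the other 11 libraries on the log2 scale. Of the 99 other genes chosen, 11 had a highest library at least 3 times their median library in CPM + 1 within the 11, and all 11 belong to the 14 of large amplitude. In drought_LRM 2 these 11 stood 3.84 to 6.42 above, with a median of 5.25. The other 88 had a median of 0.04, and all 99 a median of 0.06, against 0.07 for all genes past the floor. Genes that followed the seed gene with a large amplitude elsewhere thus peaked in drought_LRM 2 too, while the median of the list chosen without that library lay close to that of all genes there.

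Leaving out the other libraries changed the list less, with 61 to 90 members chosen again and all 14 of large amplitude each time. In irrigated_water 1 the left-out deviation was 2.43 for the seed gene and 2.40 for the other 13 of large amplitude (median). These 13 were classed with that library included. The deviation was 0.11 for the 99 others, large members included (median), against 0.10 for all genes. In irrigated_LRM 1 it was 2.14, 2.22 and 0.02, against -0.01 for all genes. In drought_LRM 1 it was 1.69, 1.76 and 0.33, against 0.04, and in drought_LRM 3 it was 2.26, 2.31 and 0.43, against 0.17. The median of the 99 others therefore stood above that of all genes in drought_LRM 1 and drought_LRM 3 and close to it in drought_LRM 2, irrigated_water 1 and irrigated_LRM 1. Chosen genes were also classed within the 11 libraries alone, by the ratio of at least 3 used for drought_LRM 2. Their median was then 2.36 in irrigated_water 1 (lowest 0.01) and 2.09 in irrigated_LRM 1 (lowest -0.01). It was 1.76 in drought_LRM 1 (lowest 1.26) and 2.30 in drought_LRM 3 (lowest 0.26).

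**Figure D4:**
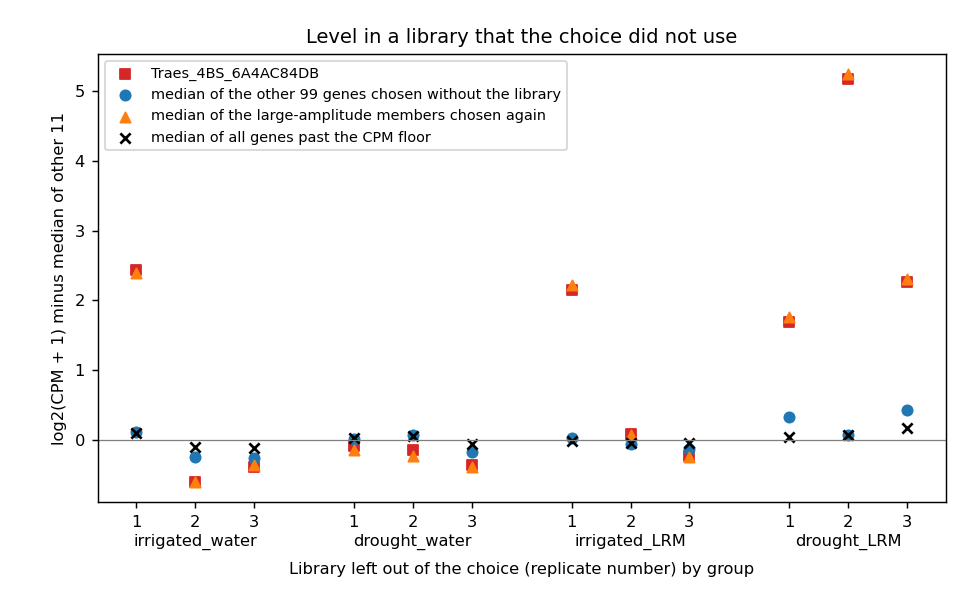
The vertical axis gives log2(CPM + 1) in the library left out minus the median of the other 11. Values are for the seed gene and for the other members of large amplitude chosen again (median, classed with all 12 libraries). Also given are the other 99 genes chosen (median) and all genes past the floor (median). The seed gene and the large members rise in the same 5 libraries, up to 5.17 and 5.25, and the median of the 99 others, which include the large members, is at most 0.43.

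Correlations with the seed gene over the 11 libraries other than drought_LRM 2 had a median of 0.987 for the other 13 large members and of 0.831 for the 85 small ones, against 0.374 for all genes. Over the 7 low libraries the medians were 0.712, 0.580 and 0.303. All points of such a correlation share the library totals and, for the low libraries, a seed gene level that varied only from 195 to 297 CPM.

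Members of large amplitude had short transcripts. The length that a gene's counts and FPKM values imply had a median of 439 bases in the 14, 1826 bases in the 85 and 1912 bases in all genes past the floor. Under 700 bases were 12 of the 14 (85.7%), 7 of the 85 (8.24%) and 1325 of the 18263 (7.26%). The seed gene's implied length was 316 bases, and the exceptions were Traes_4AS_491EF4D7F at 2372 bases and Traes_7DL_98245621B at 8674 bases. The rule did not use length, but the 14 were set apart by amplitude after the values were seen, so no test is given. Lengths of the other genes among the 91 with a ratio of at least 10 were not compared.

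**Figure D5:**
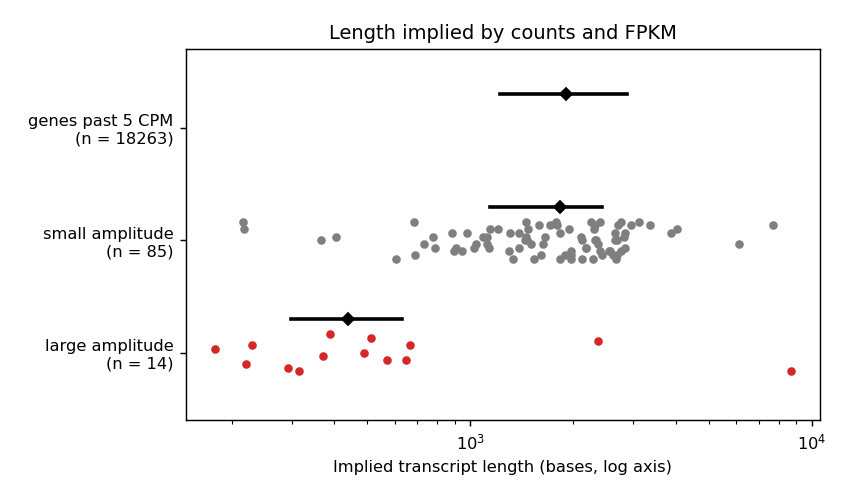
Points give the implied transcript length in bases, on a log axis, of the 14 members of large amplitude and the 85 of small amplitude; diamonds are medians and bars run from the lower to the upper quartile, also for all 18263 genes. The large members cluster under 700 bases, and the small members spread like all genes.

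By their identifiers, 33 members lie in subgenome A, 34 in B and 33 in D, against 32.3%, 35.4% and 32.4% of the genes past the floor. They fall on 36 of the 41 arms in the table, with 13 on chromosome 3B, which holds 6.53% of the genes. The 14 genes of large amplitude lie on 12 arms, with 8 genes in subgenome D, 4 in B and 2 in A. Arm 7DS is the only arm with more than 1 of them. It holds 3 of the 14 and 6 of the 100 members, against 2.37% of the genes past the floor. The members thus do not come from a single region of the genome, and no member's identifier shares its start with another identifier.

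The comparisons between groups use the libraries on which the members were chosen, so their counts are a description and nothing is read from them. All 100 members were among the 57226 genes tested. In water-sprayed plants, drought against full irrigation gave 0 members called by the quasi-likelihood test of edgeR at a Benjamini-Hochberg adjusted p below 0.05, against 0.830% of all genes tested. At an unadjusted p below 0.05 there were 0 members, against 11.4% of tested genes, and DESeq2 called 0 members, against 2.91% of the genes to which it gave an adjusted p. The median log2 fold change was -1.42 for the 14 large members and -0.01 for the 85 small ones, against 0.01 for all tested genes. Irrigated_water 1 was the only high library of the 6 compared. The levels of the 2 groups overlapped in all 100 members, whereas drought_water lay wholly above irrigated_water in 10.5% and wholly below in 7.69% of the genes past the floor.

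Under the LRM spray, drought against full irrigation gave 16 members called, all higher, 4 of large and 12 of small amplitude, against 8.65% of tested genes called higher. Drought_LRM lay wholly above irrigated_LRM in 58 members, only 3 of them of large amplitude, and in 32.9% of the genes past the floor. The called members that rose most were Traes_7DS_D02FBE6BA, by a log2 fold change of 3.79 (SE 1.15, adjusted p 0.0345 in edgeR), and Traes_4BL_51CB77408, by 3.23 (SE 0.90, edgeR adjusted p 0.0237). The latter stood at 4.30, 0.892 and 0.863 CPM in irrigated_LRM and at 6.32, 51.8 and 6.91 CPM in drought_LRM, without overlap. It averaged 2.94 CPM over the 11 libraries other than drought_LRM 2, so it passed the 5 CPM floor through that library and had to differ there. Its test is given only as a value, and DESeq2 gave it no adjusted p. Without drought_LRM 2, irrigated_LRM 2 or irrigated_LRM 3 neither was called. Without drought_LRM 2 their log2 fold changes were 1.56 and 1.55, without irrigated_LRM 2 they were 3.46 and 2.90, and without irrigated_LRM 3 they were 3.42 and 2.85. The seed gene differed by 2.66 (SE 0.92, edgeR adjusted p 0.0636) and was not called. It was called without irrigated_water 1, irrigated_LRM 1, drought_LRM 1 or drought_LRM 3, at 2.65, 3.75, 3.13 and 3.08. Without drought_LRM 2 it differed by 0.76 (edgeR adjusted p 0.569), and without irrigated_LRM 2 or 3 by 2.33 or 2.30 (edgeR adjusted p 0.201 or 0.196). The count of called members was 28 without irrigated_LRM 1 and 25 without drought_LRM 1, where 7.03% and 7.08% of tested genes were called higher. It was 5 without drought_LRM 2, 3 without irrigated_LRM 2 and 4 without irrigated_LRM 3, where 7.63%, 5.86% and 6.49% were. Scaled by library totals in place of TMM it was 26, against 11.9% of tested genes, and the median log2 fold change of all tested genes was 0.16 in place of 0.00.

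Under full irrigation, LRM against water gave 0 members called by edgeR and 0 by DESeq2, and edgeR called 0% of all tested genes. DESeq2 gave an adjusted p to 81 of the members and called 1.63% of the genes it gave one. An unadjusted p below 0.05 was found for 2 members in edgeR, against 8.70% of tested genes. The levels of irrigated_LRM and irrigated_water overlapped in all 100 members, where wholly higher and wholly lower levels were found in 7.34% and 8.97% of genes past the floor. The seed gene was high in library 1 of both groups, so the rule favoured this overlap. The median log2 fold change of the 14 large members was -0.04, with library 1 high in both groups.

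Under drought, LRM against water gave 24 members called, all higher, 12 of large and 12 of small amplitude, against 4.26% of tested genes called higher. Drought_LRM lay wholly above drought_water in 85 members, all 14 large ones included, and in 26.5% of the genes past the floor. The called members that rose most were Traes_7DS_D02FBE6BA, by a log2 fold change of 5.18 (SE 1.23, adjusted p 0.0189 in edgeR), and Traes_3DS_2B3546466, by 4.94 (SE 1.20, edgeR adjusted p 0.0213). The latter stood at 3.46, 2.69 and 2.52 CPM in drought_water and at 17.7, 238 and 33.6 CPM in drought_LRM, and was also high in irrigated_water 1 at 39.7 CPM and irrigated_LRM 1 at 24.9 CPM. The seed gene rose by 3.89 (SE 0.97, edgeR adjusted p 0.0247). Without drought_LRM 2 it differed by 1.99 (edgeR adjusted p 0.129), and without drought_water 1, 2 or 3 by 3.93, 3.89 or 3.84 (edgeR adjusted p 0.0626, 0.0947 or 0.109). Traes_7DS_D02FBE6BA and Traes_3DS_2B3546466 lost their calls in the same 4 cases, at 2.95 and 3.02 without drought_LRM 2 but at 5.05 to 5.25 and 4.88 to 5.08 without a drought_water library. The count of called members was 4 without drought_LRM 2, where 3.84% of tested genes were called higher. It was 11, 4 and 3 without drought_water 1, 2 and 3, where 4.49%, 2.02% and 1.65% were. The members' comparisons under drought and under the LRM spray share the 3 drought_LRM libraries.

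The interaction, the drought difference under LRM minus that under water, gave 0 members called by edgeR, against 0.851% of tested genes, while 26 had an unadjusted p below 0.05, against 12.9% of tested genes. DESeq2 called 6 members, all with a higher value under LRM, against 2.40% of its tested genes. In the seed gene the interaction was a log2 value of 3.90 (SE 1.27, adjusted p 0.178 in edgeR). It was 2.02 without drought_LRM 2 (edgeR adjusted p 0.440), 2.46 without irrigated_water 1 (edgeR adjusted p 0.444) and at least 3.54 without any other single library. Without drought_water 1 alone, 1 member was called, where 809 of 58425 tested genes were called with a higher value. This member, Traes_3B_8F0677E36, was named after its values were seen. With all 12 libraries it had a log2 value of 1.17 (SE 0.27, adjusted p 0.0614 in edgeR).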

How the data were processed

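The authors deposited whole-number read counts per gene for 12 leaf libraries and a second table of FPKM; no header names its unit, which was judged from the values. FastQC, HISAT2, StringTie and DESeq2 appear in the submitters' processing notes, with neither version nor role. The genome build, annotation, strand setting and handling of reads with several matches are unstated in the sources used here. Every per-sample column in the 2 deposited tables was assigned to a library by its label, and 0 were left unused. None of the 99386 identifiers matched the reference table for wheat (IWGSC CS RefSeq v2.1), and no sequence was printed.

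CPM was computed from column totals. The members' FPKM values, as deposited, departed in 0 of 1200 cells by more than 5% from the value implied by count, total and a constant length. Total counts bound the precision: the member with fewest reads in drought_LRM 2 had 122, a counting error of 9.05%. Fold changes come from R 4.3.3 with edgeR 4.0.16, its quasi-likelihood test run on the authors' counts with TMM and filterByExpr, all 12 libraries in a single fit of 4 group means and adjusted p over all genes tested. Alternatives were DESeq2 1.42.0, other scalings, filters, pseudocounts and correlations, a replicate block and each library left out. Omission of irrigated_water 1, irrigated_LRM 1 and drought_LRM 2 together was chosen after seeing the data, for the seed gene's level there. Further scalings of levels and shares, and further pseudocounts for levels, were also chosen after seeing the data.

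The members, lists and tests were chosen with earlier results of these data known. The genes named are the seed gene, the 4 members of next highest r, the 4 of highest mean CPM, the 2 with the largest and the 2 with the smallest ratio of highest to median library, the last 3 members and the next 3 genes, the most abundant member peaking in each library, and the up to 2 called members that rose or fell most per comparison. Other names are marked in the text as chosen after the values were seen.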

Additional observations from a re-analysis of the deposited data

How the results depend on the processing

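Which genes count as members depended on the settings. Of the 100, a floor of 1 CPM kept 51, a floor of 20 CPM kept all 22 that pass it, Spearman's rho kept 29, deviations from group means kept 41, and omission of irrigated_water 1, irrigated_LRM 1 and drought_LRM 2 together kept 13. Of the 14 large members, the 20 CPM floor kept the 8 that pass it, Spearman's rho kept 8, and omission of those 3 libraries kept 10. With those 3 omitted, the 5 CPM floor applied to means over the remaining libraries, so a member could also drop out by its level. The 1 CPM floor and deviations from group means kept all 14. Leaving out 1 library kept 19 to 90 of the 100 members. The median deviation in drought_LRM 2 was 0.49 over all members, 1.13 as a mean, and 0.059 for genes chosen without that library. The causes were not tested. The 14 large members stood 4.50 to 5.12 above their median there under 4 other scalings.

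The 16 members called for drought under the LRM spray became 26 with library totals, against 11.9% of tested genes called higher. They became 3 to 28 with 1 library left out, against 5.86% to 8.59%. The 24 called for LRM under drought became 3 to 29 with 1 library left out, against 1.65% to 4.49% of tested genes called higher. They became 30 with library totals (5.38% of tested genes) and 33 with DESeq2 (6.28% of its tested genes called higher). For the interaction, 0 became 1 without the filter (353 of 75198 tested genes called higher) and 6 with DESeq2 (2.40% of its tested genes). The count was 0 to 1 with 1 library left out and 4 without the 3 libraries together (5 of 58283 tested genes called higher). These 3 libraries were chosen after seeing the data, for the seed gene's level in them, so nothing is read from the results without them. Counts for drought under water and for LRM under full irrigation were 0 under all 18 alternatives. With a replicate block the counts were 14, 26 and 1. Of all tested genes 8.42%, 4.51% and, for the interaction, 451 of 57226 were then called higher. Deviations correlated above 0.1 in 7 of 18 same-numbered pairs, from -0.35 to 0.44. Pairs of unlike number were not compared, so whether the numbers pair the samples was not tested. Depth limits the low members most, with as few as 25 counts (20.0% counting error) in irrigated_water 2.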

Other observations

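Some genes too weak for the 5 CPM floor also had a high r with the seed gene. Among 56935 genes with counts below the floor, 33 had r of at least 0.95 with Traes_4BS_6A4AC84DB over the 12 libraries. Past the floor 17 of 18263 genes did, the seed gene included. All 33 below the floor were highest in drought_LRM 2. Their mean level was 0.0137 to 3.62 CPM with a median of 0.104 CPM, and they lie on 23 chromosome arms. Their highest library was 1.06 to 13.5 times their median library in CPM + 1, with a median of 1.34. At such levels log2(CPM + 1) can follow a few reads in 1 or more libraries. Equal read counts give the highest CPM in the library with the smallest total, which was drought_LRM 2. Whether this made it the highest library of the 33 was not tested. Both r and the highest library are therefore given as a description of the table.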
